A study of Mus musculus with 6 samples.

Results

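Mirtrons are miRNAs made from introns. A canonical miRNA hairpin is cut out of its transcript by the nuclease Drosha, whereas a mirtron is freed by splicing, is opened from its lariat form and folds into a hairpin that Dicer can cut. Where the hairpin fills the whole intron, both of its ends are splice sites, and where it fills only the last stretch, the rest of the intron is a tail that has to be trimmed away (a 5′-tailed mirtron). The miRNAs described here are the rows of a mouse miRNA table whose names run from miR-6896 to miR-7094, a stretch of miRBase numbers that holds mostly mouse mirtrons. All such rows were taken whatever their values, which gave 220 mature miRNAs of the 1506 listed (1198 known and 308 predicted). They came from 150 precursors, of which 70 were listed with both arms, 29 with the 5p arm alone and 51 with the 3p arm alone.

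The question of the experiment was how fibrinogen, a clotting protein of blood plasma, changes miRNAs in oligodendrocyte progenitor cells (OPCs), the precursors of the cells that form myelin. The libraries came from cultured OPCs of wild-type (WT) C57BL/6 mice, prepared from the cortex of newborn pups. There were 3 control libraries (untreated OPCs) and 3 fibrinogen libraries (OPCs treated with fibrinogen, spelled Fibrinigen in the table). The headers give the same dose for all 3 fibrinogen libraries, and the labels name no other allele or agent. The libraries are numbered by mouse, but whether they came from separate cultures is not stated, so p-values measure only the spread between these samples, which may be technical.

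The level of a miRNA was given as TPM, here the reads of the miRNA scaled to about 1000000 per library, with no correction for length. The listed values of a library summed to 992890 to 1007872 TPM in control and 972508 to 986727 TPM in fibrinogen libraries. Pooled ratios of reads below use the listed reads as totals instead, so they can differ from ratios of mean TPM. 1 read was worth 0.0669 to 0.0841 TPM, and the libraries held 11897645 to 14847034 reads. A count of 0 in a library allows a level of up to 0.201 to 0.252 TPM (3 reads), and such limits, like the intervals below, cover counting error only. The markers of the labelled cell type were present, with miR-338-3p of the oligodendrocyte lineage at 1950 to 3137 TPM, miR-219a-5p at 213 to 460 TPM and miR-219a-2-3p at means of 306 TPM in control and 571 TPM in fibrinogen libraries. Markers of other cells were also present, with neuronal miR-124-3p at group means of 25420 and 24500 TPM and endothelial miR-126a-3p at 9070 and 9257 TPM. Of the 17 markers listed, 4 had all fibrinogen libraries above all control libraries, namely miR-219a-2-3p, mesenchymal miR-143-3p (means 2192 and 3147 TPM) and miR-214-3p (0.0784 and 0.302 TPM) and epithelial miR-200b-3p (10.3 and 51.5 TPM). Another 2 had all below, immune miR-142a-3p (1177 and 846 TPM) and red-cell miR-144-3p (83.6 and 21.8 TPM). Among all 918 miRNAs with at least 10 reads in all, 19.2% lay above and 7.52% below in this way. The values of miR-214-3p were near the limit of 3 reads. The groups overlapped for the other 11 markers, among them red-cell miR-451a, mesenchymal miR-145a-5p and miR-199a-3p and epithelial miR-200c-3p. The part of these other cells in the results below was not tested.

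Hairpins of 4 members are printed to show the splice sites at their ends. The letters below are RefSeq hairpins (GRCm38.p6, with the same letters in GRCm39), 5′ to 3′, and capitals mark their first and last bases. The first pair, in Dbn1 and Dennd6b, fill their introns from end to end and so start with GU and end with AG, the letters of splice sites. The second pair, in Dazap1 and Slc17a7, lie at the 3′ end of longer introns and carry only the closing AG.
Mir6944: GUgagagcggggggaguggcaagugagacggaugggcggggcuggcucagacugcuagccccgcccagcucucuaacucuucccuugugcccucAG
Mir6958: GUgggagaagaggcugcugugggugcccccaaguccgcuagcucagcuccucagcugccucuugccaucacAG
Mir6911: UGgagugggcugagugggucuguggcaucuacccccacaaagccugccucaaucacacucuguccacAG
Mir7055: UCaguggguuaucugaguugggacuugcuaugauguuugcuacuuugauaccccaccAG

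The mature arms are shown with the seed, bases 2 to 8, in capitals, because the seed sets which mRNAs a miRNA can pair with. These are 8 of the 10 most abundant members, all but miR-6951-5p and miR-7047-3p, and miR-6900-3p, which had the lowest p in the comparison of the groups. Among them, 4 of the 3p arms close with the letters cag, the end of an intron.
miR-6944-3p: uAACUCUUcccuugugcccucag
miR-6911-3p: uCAAUCACacucuguccacag
miR-6958-3p: uCAGCUGCcucuugccaucacag
miR-7066-5p: uGGGUUGGgaaaugaguagagg
miR-6899-3p: uUGUCCUUcugugucuucugcag
miR-7055-5p: uCAGUGGGuuaucugaguugg
miR-7073-5p: uGGGGGAAuugaaagacuauga
miR-7010-5p: cGGAAAGGauugggaaacuuga
miR-6900-3p: uGGUGAUGggcucucuuguag

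The positions of the hairpins were read from the annotation. Mirtrons are defined by such positions, so this describes the members and is no independent test of the name. Of the 150 precursors, 149 could be placed in GENCODE vM39 (GRCm39). In 131 of these (87.9%) the 3′ end alone lay within 2 bases of the end of an annotated intron of the same strand, taking the nearest over all transcripts, which is the layout of a 5′-tailed mirtron. In 129 of the 131 the last base of the hairpin was exactly the last base of the intron, and 129 ended in AG while 9 started with GU. The hairpin began 5 to 36202 bases into the intron, with a median of 512. In 10 precursors (6.71%) both ends matched an intron exactly, and all 10 started with GU and ended with AG. Those introns were 67 to 137 bases long and belonged to Dbn1, Dennd6b, Cpne7, Cherp, Lta, Fbxw9, Skic2, Lat, Fbrs and Dnase1l1. A further 3 precursors lay at the 5′ end of an intron alone, and 5 lay elsewhere in an intron or across its edge. One of these 5, Mir7025, lies across an intron edge of Pdgfra, the gene of the receptor that marks OPCs, and had 2 reads in all. Among 590 precursors of the other known miRNAs of the table, only the 3′ end matched an intron end in 25 (4.24%) and both ends did in 6 (1.02%). Exons of the same strand overlapped 46 of the 149 precursors (30.9%), counting an overlap of any length with the hairpin. Where an exon covers an arm, reads of exon fragments and of the hairpin cannot be told apart. Among the 10 most abundant members, the hairpins of miR-6944-3p, miR-6958-3p and miR-7010-5p have such an overlap. The hairpin of miR-7010-5p reaches just past the nearest intron end on its 3′ side. Whether an exon covers its 5p arm was not tested.

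**Figure D1:**
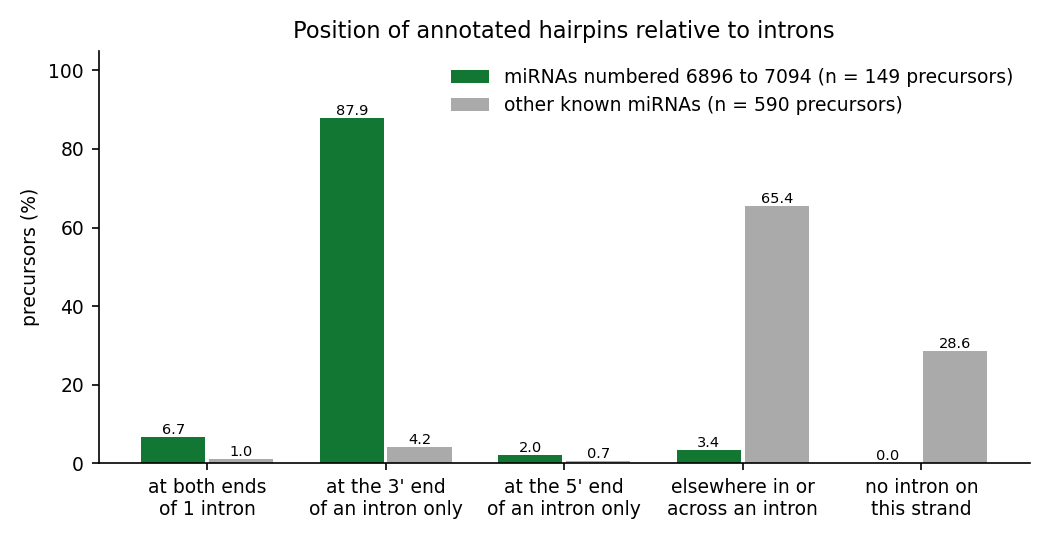
Share of precursors in percent by where the hairpin lies relative to an intron of the same strand, for the 149 placed precursors of miR-6896 to miR-7094 and for 590 precursors of the other known miRNAs. The first set is concentrated at the 3′ end of introns (87.9%), whereas the second lies mostly elsewhere in introns (65.4%) or outside them (28.6%).

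The mature sequences carried the same marks, which follow in part from the placement of the hairpins. A mature sequence was found for 201 of the 220 members. Of 107 3p arms, 78 ended in AG (72.9%), against 42 of 400 3p arms of the other known miRNAs (10.5%). The longer ending CAG was held by 66 (61.7%) against 22 (5.5%). The last base of the 3p arm was the last base of the hairpin in 73 of 106 (68.9%), against 53 of 399 (13.3%). The 3p arms were rich in pyrimidines, with a median of 71.4% against 54.5%, the composition of the stretch that precedes a 3′ splice site. The 5p arms were rich in G, with a median of 40.9% against 27.3%. Few 5p arms began with GU, 8 of 94 (8.51%) against 18 of 365 (4.93%). Hairpins were shorter than those of the other known miRNAs, with a median of 66 against 82 bases, and had a median GC content of 56.8% against 50%. These are descriptions of the sequences, with no test.

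Almost all members were read rarely. They made up 18.4% of the known miRNAs listed but 0.00188% of the reads, 1472 reads over all 6 libraries. Of the 220, 192 (87.3%) were above 0 in at least 1 library, against 958 of 978 other known miRNAs (98.0%). Only 29 members (13.2%) were above 0 in all 6 libraries, against 650 of the other known miRNAs (66.5%). The largest class was the 69 members seen in a single library. The 28 members at 0 in every library were 58.3% of all known miRNAs listed at 0. The median member had 2 reads over the 6 libraries, against 110.5 for the other known miRNAs. There were 106 members with 1 to 3 reads, 39 with at least 10 and 11 with at least 30, and none reached 100. No member exceeded 1.93 TPM in any library. The top 10 held 535 reads, or 36.4% of the reads of all members.

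**Figure D2:**
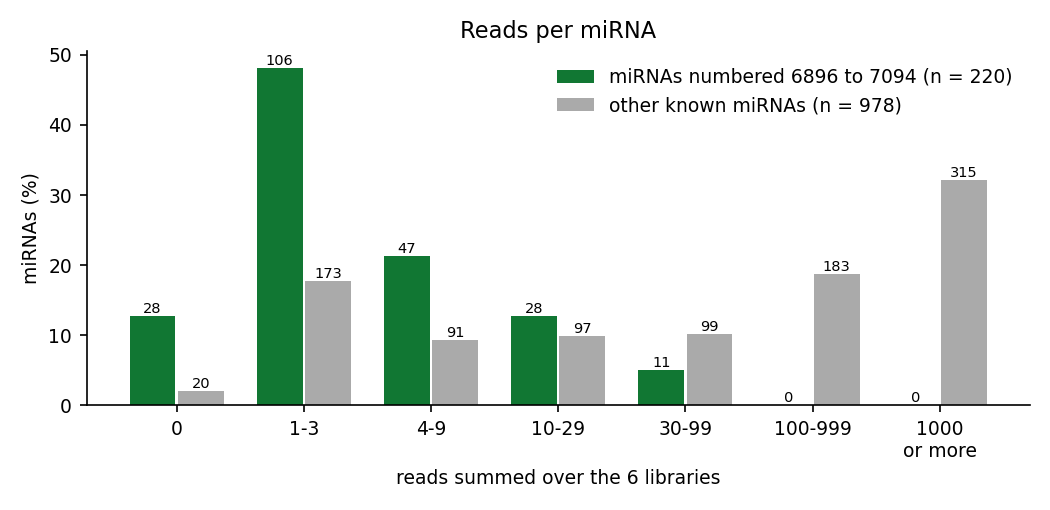
Distribution of the reads of a miRNA, summed over the 6 libraries, as the percent of the 220 members and of the 978 other known miRNAs in each class of reads. Members crowd at 1 to 3 reads (106 members) and end at 89 reads, whereas 315 of the other known miRNAs (32.2%) fall in the class with 1000 reads or more.

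Reads were also counted by the placement of the hairpin. Precursors at the 3′ intron end alone held 1212 of 1444 reads of placed precursors (83.9%), and the 10 that fill their intron held 203 (14.1%), though they were 6.71% of the precursors. Of the 203 reads, 187 came from Mir6944, Mir6958 and Mir7080, and the other 7 had 1 to 8 reads each. The median was 2 reads for a precursor that fills its intron and 4 for one at the 3′ intron end alone. All 10 that fill their intron were read at least once, as were 119 of the 131 with a 3′ intron end alone. The 3p arms that end in AG held 618 of 827 reads of 3p arms with a known sequence (74.7%), near their share of those arms (72.9%). Their median was 2 reads, against 4 for the 3p arms that do not end in AG.

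The summed level of all members did not separate the groups. It was 17.7, 18.2 and 16.7 TPM in the 3 control libraries and 17.0, 20.5 and 22.0 TPM in the 3 fibrinogen libraries. In bulk samples, fewer cells of a type and less RNA per cell cannot be told apart. The groups overlapped, since the lowest fibrinogen library lay between control libraries. The means were 17.5 ± 0.734 and 19.8 ± 2.54 TPM (SD, n = 3 each), a log2 fold of 0.18 on summed TPM. Over all 607 miRNAs tested with limma (below), the median log2 fold change was 0.13 and went to 0.0031 with median-of-ratios scaling, and the log2 fold of the summed level was then 0.043. Exact Poisson intervals (95%) on the reads of single libraries ran from 14.7 to 24.8 TPM. Across the groups, that of control replicate 3 (14.7 to 18.9 TPM) lay below that of fibrinogen replicate 3 (19.4 to 24.8 TPM), and the other pairs overlapped.

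Detection did not separate the groups either. Control libraries had 84, 76 and 98 members above 0, and fibrinogen libraries 90, 98 and 100. The means were 86 ± 11.1 and 96 ± 5.29 members (SD, n = 3 each), and the groups overlapped from 90 to 98. Scaled to the depth of the smallest library, the numbers were 81.2, 76 and 86.1 against 85.3, 91.7 and 99.1, and again overlapped. Over the groups, 108 members were above 0 in both, 38 in control alone and 46 in fibrinogen alone. The same counts were not taken over the other known miRNAs, so no excess in either group can be read from them. Members seen in 1 group alone had few reads, at most 3 in control and at most 6 in fibrinogen. The highest were miR-6936-3p, with 0, 0 and 0 reads in control and 1, 2 and 3 in fibrinogen libraries, and miR-6966-5p, with 0, 0 and 0 against 0, 2 and 4. Both were chosen for being above 0 in fibrinogen alone. Set against the 3 reads that a count of 0 allows over the control group, the 6 reads of each gave a ratio of 2.04. With the counting error of those reads, the exact 95% interval of the ratio began at 1.20. Because both were chosen for this pattern, the interval is not a test of a difference.

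**Figure D3:**
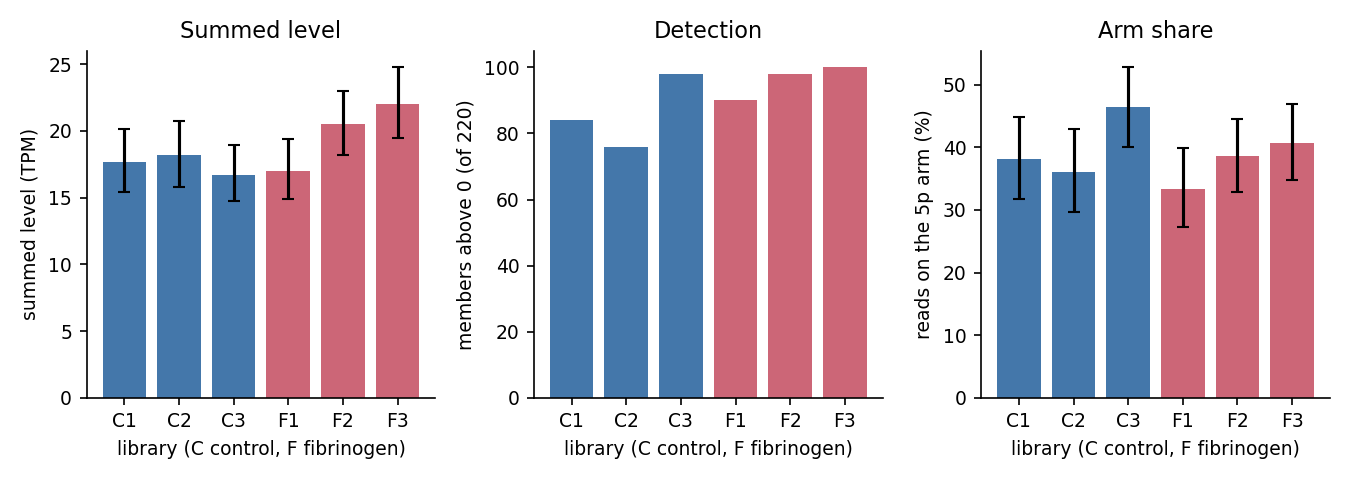
Values of each library, control and fibrinogen, for the summed level of the 220 members in TPM (bars, exact Poisson 95% interval), the number of members above 0, and the percent of member reads on the 5p arm (bars, exact binomial 95% interval). The groups overlap in all 3 panels, with summed levels of 16.7 to 18.2 TPM in control and 17.0 to 22.0 TPM in fibrinogen libraries.

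The most abundant member, miR-6944-3p, is the 3p arm of a hairpin that fills an intron of 96 bases in Dbn1, the gene of the actin-binding protein drebrin (chr13:55625494-55625589, minus strand, GRCm39). Its level was 0.9502, 1.93 and 0.602 TPM in control and 1.12, 0.934 and 1.38 TPM in fibrinogen libraries. The control libraries held both the highest and the lowest value, and the means were 1.16 ± 0.691 and 1.146 ± 0.226 TPM (SD, n = 3 each). It was the only member that reached 1 TPM in 3 or more libraries, the level required for the comparison across miRNAs with limma. There, on log2(TPM + 1), its log2 fold change was 0.03 (SE 0.25, adjusted p = 0.962), and its sign turned under other scalings. Of the 607 miRNAs tested, limma called 13 higher (2.14%) and 4 lower (0.659%) in fibrinogen at an adjusted p under 0.05, with no member among them.

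The other member whose hairpin fills its intron and that ranks among the top 10 is miR-6958-3p, from an intron of 73 bases in Dennd6b, the gene of a protein that activates Rab GTPases (chr15:89069668-89069740, minus strand). It had 0.475, 0.673 and 0.401 TPM in control and 0.970, 1.22 and 0.896 TPM in fibrinogen libraries. Every fibrinogen library lay above every control library, with means of 0.516 ± 0.140 and 1.03 ± 0.171 TPM (SD, n = 3 each). Pooled reads gave a ratio of 2.09 (exact 95% counting interval 1.20 to 3.76). On reads, edgeR gave a log2 fold change of 0.85 (SE 0.40, adjusted p = 0.350), so it was not called.

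miR-6911-3p was second in level among all members and first among those with a 5′ tail. Its hairpin ends an intron of 550 bases in Dazap1, the gene of an RNA-binding protein (chr10:80113998-80114066, plus strand), 481 bases after the intron begins. Its levels were 1.03, 0.673 and 0.936 TPM in control and 0.672, 1.01 and 0.896 TPM in fibrinogen libraries, which overlapped over nearly their whole range. miR-6899-3p is the member of the top 10 with the longest tail, 36202 bases of an intron in Klf7, the gene of a transcription factor (chr1:64081597-64081660, minus strand). It had 0.554, 0.841 and 0.334 TPM in control and 0.672, 0.503 and 0.733 TPM in fibrinogen libraries, and the groups overlapped. miR-7047-3p had 0.475, 0.336 and 0.468 TPM against 0.373, 0.359 and 1.06 TPM. Its fibrinogen mean was raised by replicate 3 alone.

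miR-6951-5p comes from a hairpin at the end of an intron of Azin1 (chr15:38490717-38490791, minus strand), the gene of a regulator of polyamine synthesis. Its level was 0.634, 1.18 and 1.14 TPM in control and 0.448, 0.575 and 0.407 TPM in fibrinogen libraries. All fibrinogen libraries lay below all control libraries, with means of 0.983 ± 0.303 and 0.477 ± 0.0876 TPM (SD, n = 3 each). The closest libraries, control replicate 1 and fibrinogen replicate 2, had 8 reads each and were set apart only by the scaling to TPM. The pooled ratio was 0.496 (0.271 to 0.879). edgeR gave a log2 fold change of -1.16 (SE 0.42, unadjusted p = 0.033, adjusted p = 0.259), so the difference did not pass adjustment.

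miR-7055-5p lies at the end of an intron of Slc17a7, which encodes the vesicular glutamate transporter of excitatory neurons (chr7:44822727-44822785, plus strand). Its 0.634, 0.925 and 0.602 TPM in control libraries were all above the 0.299, 0.575 and 0.407 TPM in fibrinogen libraries. The closest libraries differed by less than the value of 1 read. The log2 fold change was -0.88 (edgeR, adjusted p = 0.373). miR-7066-5p, from Ncan, the gene of the brain matrix proteoglycan neurocan (chr8:70555174-70555236, minus strand), had 0.871, 0.589 and 0.936 TPM against 1.05, 0.503 and 0.0814 TPM. Its fibrinogen libraries ran from 14 reads to 1, and the groups overlapped.

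The last of the top 10 were miR-7073-5p, from Cnot1, the scaffold of the CCR4-NOT deadenylase, and miR-7010-5p, from Gucy1a1, a subunit of soluble guanylate cyclase. miR-7073-5p had 0.554, 0.0841 and 0.401 TPM in control and 0.523, 0.647 and 0.570 TPM in fibrinogen libraries. miR-7010-5p had 0.554, 0.505 and 0.334 TPM against 0.149, 0.791 and 0.326 TPM. The groups overlapped in both.

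Because 1 member only passed the level filter, the groups were also compared on reads with edgeR's quasi-likelihood test for the 918 miRNAs with at least 10 reads in all, a comparison added after the values had been seen. It called 5 miRNAs higher (0.545%) and 3 lower (0.327%) in fibrinogen at an adjusted p under 0.05, and none of the 39 members tested. At an unadjusted p under 0.05 there were 0 members higher and 2 lower, miR-6900-3p and miR-6951-5p, against 80 higher (8.71%) and 79 lower (8.61%) of all 918. The median log2 fold change was 0.069 over the 39 members and 0.00043 over all 918. With DESeq2, 0 members had an unadjusted p under 0.05, and DESeq2 gave no adjusted p for any of the 39. Without a filter, limma tested 192 members and called 0, with 6 higher and 3 lower at an unadjusted p under 0.05, against 148 higher (10.5%) and 44 lower (3.12%) of all 1410 miRNAs tested.

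miR-6900-3p, from an intron of Ndufa10, which encodes a subunit of respiratory complex I (chr1:92392205-92392264), had the lowest p. It had 5, 6 and 9 reads in control and 1, 2 and 2 reads in fibrinogen libraries. That is 0.396, 0.505 and 0.602 TPM against 0.0747, 0.144 and 0.163 TPM, with no overlap. The pooled ratio was 0.254 (exact 95% counting interval 0.0746 to 0.699), and the log2 fold change was -2.04 (edgeR, SE 0.57, unadjusted p = 0.0108, adjusted p = 0.207).

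Of the 918 miRNAs, 176 (19.2%) had all fibrinogen libraries above all control libraries and 69 (7.52%) had all below. Of the 39 members, 3 (7.69%) lay above, miR-6958-3p, miR-6966-3p and miR-6946-5p, and 4 (10.3%) lay below, miR-6951-5p, miR-7055-5p, miR-6900-3p and miR-6994-3p. The smallest p that an exact permutation test (two-sided) allows with 3 libraries in each group is 0.1. miR-6966-3p had 3, 0 and 3 reads in control against 7, 4 and 4 in fibrinogen libraries. miR-6946-5p had 1, 1 and 1 against 3, 4 and 3 reads, and miR-6994-3p had 2, 4 and 3 against 0, 1 and 1 reads. In all 3 cases the counting interval of the pooled ratio held 1. Of the 39 members, that interval lay above 1 for miR-6958-3p alone, below 1 for miR-6900-3p and miR-6951-5p, and held 1 for the other 36. The same count was not taken over all 918 miRNAs, so no excess can be read from it. Within the groups, the reads of the 39 members spread more than counting error alone (chi-square of 1.28 per degree of freedom). The intervals leave that spread out.

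**Figure D4:**
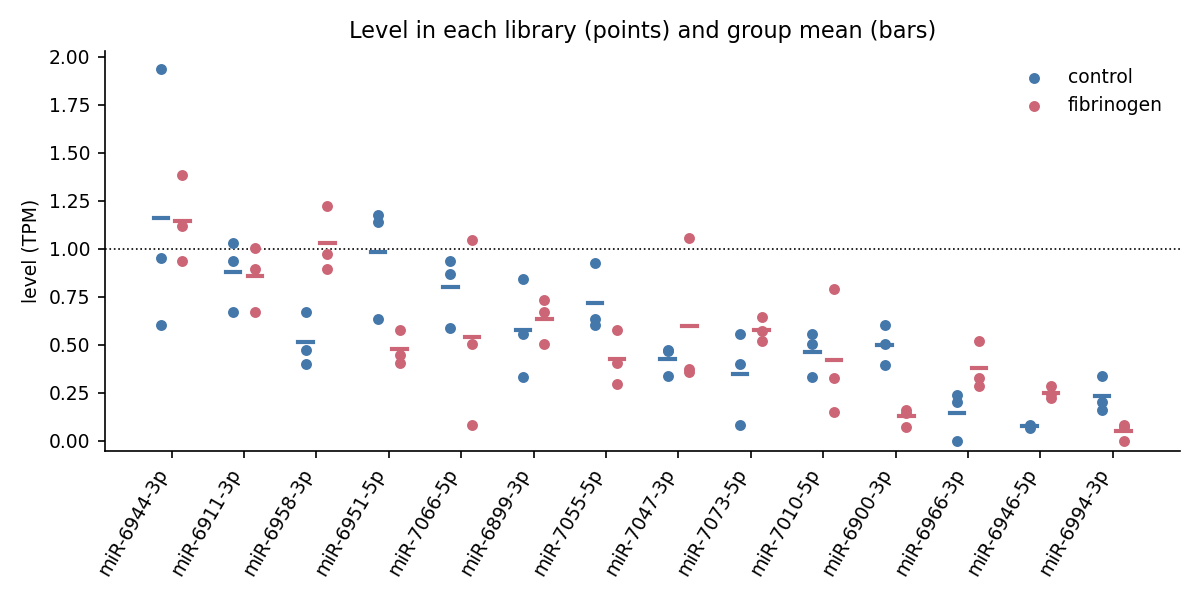
Level in TPM of single members in each of the 6 libraries, control and fibrinogen, for the 10 most abundant members and for miR-6900-3p, miR-6966-3p, miR-6946-5p and miR-6994-3p; the dotted line marks the level filter of 1 TPM. Most points lie under 1 TPM. The groups do not overlap for miR-6958-3p, miR-6966-3p and miR-6946-5p (higher in fibrinogen) and for miR-6951-5p, miR-7055-5p, miR-6900-3p and miR-6994-3p (lower), and overlap for the other members drawn.

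Dicer releases both arms of a hairpin together, and Argonaute usually keeps a single arm as the mature miRNA. Over all members, 575 reads lay on 5p arms and 897 on 3p arms. The share on the 5p arm was 38.1%, 36.1% and 46.4% in control and 33.3%, 38.6% and 40.7% in fibrinogen libraries. The groups overlapped, with means of 40.2% ± 5.45 and 37.6% ± 3.81 (SD, n = 3 each). Without control replicate 3, the library with the highest share, the difference of the means (fibrinogen minus control) turned from -2.65 to 0.443 percentage points. Over the 70 precursors listed with both arms, 427 of 982 reads lay on the 5p arm (43.5%), and 55 precursors were read on both arms.

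Of the 70, 25 had at least 10 reads, and 16 had more on the 3p arm, 8 more on the 5p arm and 1 the same on both. The interval of the 5p share (exact binomial, 95%, over pooled reads) lay below 50% in 13, above it in 7 and held it in 5. The precursors named here were chosen after their values were seen. miR-6944 had 1 of 90 reads on the 5p arm (1.11%, 0.0281 to 6.04), and miR-6911 had 2.82% of 71. Opposite to these, miR-7066 had 96.4% of 56, miR-6951 93.5% of 62 (84.3 to 98.2), miR-7010 92.1% of 38 and miR-7055 78.9% of 57 reads on the 5p arm. For miR-6900, 0 of 25 reads lay on the 5p arm (at most 13.7%). The 3p arm thus led in most of the precursors but not in several of those with most reads.

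The leading arm was the same in both groups in 21 of the 25. The other 4, miR-6946, miR-6994, miR-7042 and miR-6936, include 3 with an arm of few reads described above. One arm held at least 90% of the reads in 12 of the 25 (48%), against 221 of 328 other known miRNAs with both arms and at least 10 reads (67.4%). The other known miRNAs led with the 5p arm in 174 and with the 3p arm in 153. Their read numbers are higher, so the shares were measured with different precision.

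**Figure D5:**
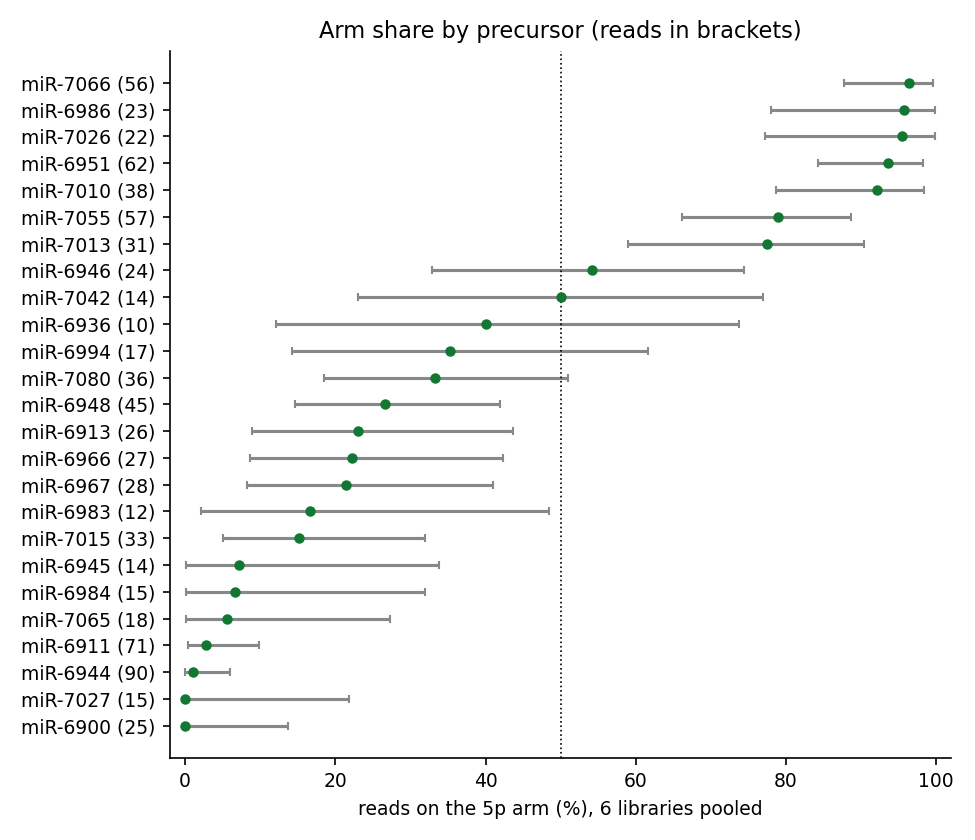
Percent of reads on the 5p arm for the 25 precursors listed with both arms and with at least 10 reads over the 6 libraries; bars are exact binomial 95% intervals, and the line at 50% marks equal arms. The points gather near both ends of the scale, with 13 intervals below 50% and 7 above.

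Seeds were mostly private to a member. The 201 members with a sequence had 195 different seeds, and 12 members formed 6 pairs with a shared seed. The pairs with most reads are printed to show how far their letters agree beyond the seed, in capitals.
miR-7055-5p: uCAGUGGGuuaucugaguugg
miR-6926-5p: uCAGUGGGgugagggaugguga
miR-7010-5p: cGGAAAGGauugggaaacuuga
miR-7027-5p: uGGAAAGGaagaaacagcagagc
The first pair had 48 reads in all, 45 of miR-7055-5p and 3 of miR-6926-5p, and miR-194-2-3p of the other known miRNAs has the same seed. The second pair had 35 reads, all of miR-7010-5p, as miR-7027-5p was at 0 in every library. The third pair, miR-6967-5p and miR-7016-5p, had 7 reads and shares its seed with miR-149-3p and miR-1943-5p. In total 17 members shared a seed with another known miRNA of the table, and no member's sequence was equal to or held within that of another known miRNA.

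Other mirtrons and miRNAs made without Drosha lie outside the number range. The mirtron miR-1224-5p had 2.53, 1.26 and 7.42 TPM in control and 6.87, 6.47 and 9.12 TPM in fibrinogen libraries, and the groups overlapped (limma, log2 fold change 1.05, adjusted p = 0.199). The mirtron miR-877-5p had means of 0.692 and 1.46 TPM (0.58, adjusted p = 0.206). miR-320-3p and miR-484, which skip Drosha without being mirtrons, had 11.3 against 22.1 TPM (0.96, adjusted p = 0.108) and 8.73 against 13.9 TPM (0.61, adjusted p = 0.101). All fibrinogen libraries lay above all control libraries for miR-320-3p and miR-484, as for 19.2% of the 918 miRNAs with at least 10 reads. The groups overlapped for miR-877-5p. None of the 4 was called. The other arms were lower. miR-877-3p had means of 0.573 and 1.12 TPM (edgeR on reads, log2 fold change 0.81, adjusted p = 0.375), and miR-1224-3p had 0.254 and 0.244 TPM (-0.16, adjusted p = 0.957). miR-702-3p had 0.0710 and 0.255 TPM (1.54, adjusted p = 0.386), and miR-702-5p, with too few reads for this comparison, had 0.0264 and 0.0990 TPM. For miR-702-3p too, all fibrinogen libraries (0.224, 0.216 and 0.326 TPM) lay above all control libraries (0.0792, 0 and 0.134 TPM). Those values were near the limit of 3 reads.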

How the data were processed

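Small RNA of cultured mouse OPCs was sequenced in 3 control and 3 fibrinogen libraries. The authors filtered reads, trimmed them (cutadapt 1.15), collapsed duplicates by in-house code, aligned them with Bowtie 1.1.2 (GRCm39 in the study's methods, mm10 in the submitters' processing notes), counted known and predicted miRNAs with miRDeep2 and compared the groups with edgeR 3.12.1. The values deposited by the authors are called TPM but are RPM: each is a whole multiple of 1 step of its column. Division by the step gave whole read counts, within 0.1, for 99.8% to 100% of values above 0. How the removal of duplicates changed the levels was not tested.

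limma 3.58.1 (R 4.3.3, trend, two-sided, Benjamini-Hochberg adjustment) compared the groups on log2(TPM + 1), using miRNAs that reached 1 TPM in 3 or more libraries. edgeR 4.0.16 and DESeq2 1.42.0 were run on the recovered reads, also for miRNAs with at least 10 reads. SEs of edgeR were derived from its F statistic. The limma and edgeR procedures were tested on simulated data, and DESeq2 was not. Summed level, detection and the 5p share are scores over chosen members and have no test. Hairpins were placed with GENCODE vM39, and an end counted as an intron end within 2 bases. RefSeq sequences were matched by name, and 2 precursors on chromosome 18 were left out of the sequences. The position of miR-7047 is not reported here.

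Members named are the 10 with the highest mean TPM, any past the limma threshold (none), the largest changes among tested members (1 tested), the precursors with both arms and at least 100 reads with the most uneven arms (none), up to 3 groups with a shared seed, the member with most reads in 1 group only, miR-6951-5p, and the arms of miR-877, miR-1224, miR-702, miR-320 and miR-484. miR-320-5p was not listed. Other names were chosen after their values were seen. The members and lists were chosen with earlier results of these data known. The main comparisons did not pair libraries, since whether the groups share mice is not stated.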

Additional observations from a re-analysis of the deposited data

How the results depend on the processing

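Called members stayed at 0 in each direction under every setting that gave a member an adjusted p. Pseudocounts of 0.1 and 5, median-of-ratios scaling, edgeR, DESeq2 and the replicate block tested 1 member only, miR-6944-3p. Without a filter, 192 members were tested. For miRNAs with at least 10 reads (added after seeing the data), edgeR tested 39 members, also with the replicate block. DESeq2 gave none of these 39 an adjusted p, so it could call none. Leaving out a library gave 0 called in the 3 limma fits that tested a member, each of which tested 1. It also gave 0 in the 6 edgeR fits of miRNAs with at least 10 reads, which tested 32 to 35 members. A minimum of 10 TPM, and limma without control replicate 2, fibrinogen replicate 1 or fibrinogen replicate 3, left no member to test. The mean 5p share over precursors with at least 10 reads in every library could not be had, since 0 precursors met this. miR-6944-3p changed sign, with log2 fold changes of -0.041 with median-of-ratios scaling, -0.18 with edgeR, -0.17 with DESeq2, -0.17 with edgeR and -0.15 with DESeq2 for miRNAs with at least 10 reads, -0.034 with edgeR and the replicate block, and -0.16 to 0.10 in the 3 limma fits without a library that tested it (control replicate 1, control replicate 3 or fibrinogen replicate 2 left out). The cause was not tested, and its adjusted p was 0.678 to 0.996 where one was given (DESeq2 for miRNAs with at least 10 reads gave none). Without each library in turn, the log2 fold of the summed level was 0.0986 to 0.278, the difference in members above 0 was 5 to 16, and the difference in 5p share was -4.70 to 0.443 percentage points. With the replicate block these were 0.17, 10 and -2.65. Control and fibrinogen libraries with the same number share a mouse number in the headers, and whether they came from the same mouse is not stated. Their deviations from the group means had correlations of 0.0377, 0.233 and 0.124, against -0.195 to 0.0876 for different numbers. The calls among all miRNAs moved more: 13 higher and 4 lower with limma, 8 and 4 with edgeR and 30 and 36 with DESeq2 for the same 607 miRNAs, 8 and 3 with no filter, and, for 918 miRNAs, 5 and 3 with edgeR, 3 and 2 with the replicate block, and 32 and 42 with DESeq2. Without each library in turn, limma called 0 (without fibrinogen replicate 1) to 39 (without control replicate 3) higher and 0 (without control replicate 1 or 2) to 6 (without fibrinogen replicate 3) lower. Without each library in edgeR, miR-6900-3p had -2.21 to -1.76 (adjusted p 0.236 to 0.440), miR-6951-5p -1.37 to -1.01 (0.276 to 0.485) and miR-6958-3p 0.67 to 1.07 (0.369 to 0.549). Read numbers limit what can be compared, since 28 members had no read and 106 had 1 to 3.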
